A study of Mus musculus with 11 samples.

Results

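The genes analyzed here encode the Toll-like receptors (TLRs) that sense microbes at the cell surface, their lipopolysaccharide co-receptors and the NOD sensors of the cytosol. They were taken by gene symbol as Tlr1, Tlr2, Tlr4, Tlr5, Tlr6, Cd14, Ly96, Nod1 and Nod2, and all 9 were found, each as 1 entry, among the 45777 genes of the expression table. Their mRNA was measured by bulk RNA sequencing of skin and small intestine from BALB/c mice that had a cream applied to the shaved skin of the back and to the right ear, starting at 8 to 10 weeks of age. The cream was Vaseline in control mice and a 5% imiquimod (IMQ) cream in the others, at 62.5 mg per day for 5 to 8 days, and the annotation names no genetic change in any group. IMQ is a ligand of the endosomal receptor TLR7, which is not among the 9 genes, and its application to mouse skin is a model of psoriasis-like dermatitis. The question asked was how far, in these mice, the sensors of bacterial products changed in the treated skin and in the small intestine, to which no cream was applied. The study detected IMQ in the serum and the intestine after its application to the skin.

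TLRs are membrane receptors whose extracellular leucine-rich repeats bind microbial molecules and whose cytosolic TIR domain recruits adaptors such as MyD88. TLR2 pairs with TLR1 to bind triacylated lipopeptides and with TLR6 to bind diacylated lipopeptides of bacteria, TLR4 binds lipopolysaccharide in a complex with MD2 (encoded by Ly96) after transfer by CD14, and TLR5 binds flagellin. NOD1 and NOD2 lie in the cytosol, bind fragments of bacterial peptidoglycan and signal through the kinase RIPK2, and both routes lead to NF-kappaB and to the production of cytokines. Macrophages, monocytes and neutrophils carry many of these receptors, and keratinocytes and intestinal epithelial cells carry some of them, next to the bacteria of the skin and the gut.

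Libraries 1 to 3 are control skin (n = 3), 4 to 6 IMQ-treated skin (n = 3), 7 to 9 small intestine of control mice (n = 3) and 10 to 11 small intestine of IMQ-treated mice (n = 2). Each held between 44995414 and 58526384 counts. The annotation does not say which tissues came from the same mouse, which mice were female or male, or how many days each mouse was treated, so p-values measure the spread between these libraries. Keratinocyte markers summed to 4709 to 13060 FPKM in skin and to at most 1.39 in small intestine, and enterocyte markers to 4429 to 8631 FPKM in small intestine. FPKM is the number of fragments scaled by transcript length and by library size, as deposited. Control library 2 of the skin stood apart: its hair follicle markers summed to 2.61 FPKM, against 532 and 885 in control libraries 1 and 3 and 2.27 to 2.84 in the IMQ libraries, and its enterocyte markers reached 1.67% of the mean of the control intestines, against at most 0.0438% in the other skin libraries. The changes of the 9 genes in skin are therefore also given without it. In those fits every control skin was high in hair follicle markers and every IMQ skin low. Hair follicle content and IMQ cannot be told apart there, so these fits are not a cleaner comparison.

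The positions of the genes are those of the RefSeq annotation of GRCm38 (mm10), the build to which the reads were aligned. Tlr1 (Entrez 21897) lies at chr5:64924680-64933600 and Tlr6 (21899) at chr5:64953092-64970942, both on the minus strand and 19491 bases apart. Tlr2 (24088) lies at chr3:83836272-83841824, Tlr4 (21898) at chr4:66827551-66846581, Tlr5 (53791) at chr1:182954752-182976044 and Ly96 (17087) at chr1:16688456-16709605. Cd14 (12475) lies at chr18:36725064-36726815, Nod1 (107607) at chr6:54923942-54972674 and Nod2 (257632) at chr8:88647315-88688474. Tlr1 and Tlr6 are close paralogs: of the 3021 distinct stretches of 100 bases in the coding transcripts of Tlr1, 259 (8.57%) also occur in those of Tlr6, and no other pair of the 9 genes shares one. Tlr6 also overlaps Fam114a1 and the microRNA gene Mir574 on the opposite strand. The handling of strand and of reads that match several genes is not given in the sources used here, so the values of Tlr1 and Tlr6 are uncertain to that extent.

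In control mice, the mRNA of 5 of the 9 genes was higher in skin than in small intestine, and that of Tlr1 was higher in small intestine. With edgeR's quasi-likelihood test and Benjamini-Hochberg adjustment over all genes tested, called at an adjusted p under 0.05, the genes higher in skin were Tlr5, Nod1, Tlr4, Nod2 and Tlr2, in order of the difference. Of the 18890 genes tested between the control tissues, 25.7% were called higher in skin and 26.2% higher in small intestine, so a call between the tissues was common. On the log2 scale, skin minus small intestine was 2.55 ± 0.38 (SE) for Tlr5 (adjusted p = 0.00089), 1.72 ± 0.21 for Nod1 (adjusted p = 0.000289) and 1.51 ± 0.22 for Tlr4 (adjusted p = 0.000833) in edgeR's test. Tlr1 differed the other way by -1.82 ± 0.17 (adjusted p = 8.29e-05). These 4 differences were called with each of the 6 libraries left out. Nod2 (0.89 ± 0.30, adjusted p = 0.0395) and Tlr2 (0.71 ± 0.24, adjusted p = 0.04) were called in only 1 of the 6 fits with a library left out, and without control skin library 2 their differences were 0.52 (adjusted p = 0.0805) and 0.53 (adjusted p = 0.0929). Ly96 (0.72, 95% interval 0.09 to 1.35, adjusted p = 0.0568), Cd14 (0.50, -0.05 to 1.06, adjusted p = 0.117) and Tlr6 (-0.45, -0.93 to 0.04, adjusted p = 0.11) were not called. Without control skin library 3, Ly96 (0.87, adjusted p = 0.0431) and Cd14 (0.71, adjusted p = 0.0287) were called.

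The order of the levels per length differed between the control tissues. In control skin, Nod1 was highest at 10.96 ± 1.96 FPKM (SD, n = 3), followed by Cd14 at 4.84 ± 1.01 and Ly96 at 4.18 ± 0.68, which lay within their spread of each other. Tlr2 (2.75 ± 0.38), Tlr5 (2.57 ± 0.94), Nod2 (2.46 ± 0.81), Tlr4 (2.40 ± 0.40) and Tlr1 (2.01 ± 0.16) came next and lay within their spread of each other except for Tlr2 and Tlr1, and Tlr6 was lowest at 1.49 ± 0.15. In control small intestine, Tlr1 was highest at 5.16 ± 0.64 FPKM (SD, n = 3), followed by Cd14 (2.50 ± 0.17), Nod1 (2.46 ± 0.45), Ly96 (1.83 ± 0.34), Tlr6 (1.59 ± 0.24), Tlr2 (1.25 ± 0.24) and Nod2 (0.981 ± 0.097). From Cd14 to Nod2 each overlapped the next in this order within their SD, and Tlr4 (0.617 ± 0.077) lay below them. Tlr5 was lowest at 0.245 ± 0.007 FPKM, on counts of 45, 64 and 80. The FPKM of Tlr5 and Tlr6 did not follow their counts alone, since the transcript length implied by count and FPKM varied 1.54-fold and 1.21-fold between libraries, against at most 1.07-fold for the other 7 genes.

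**Figure D1:**
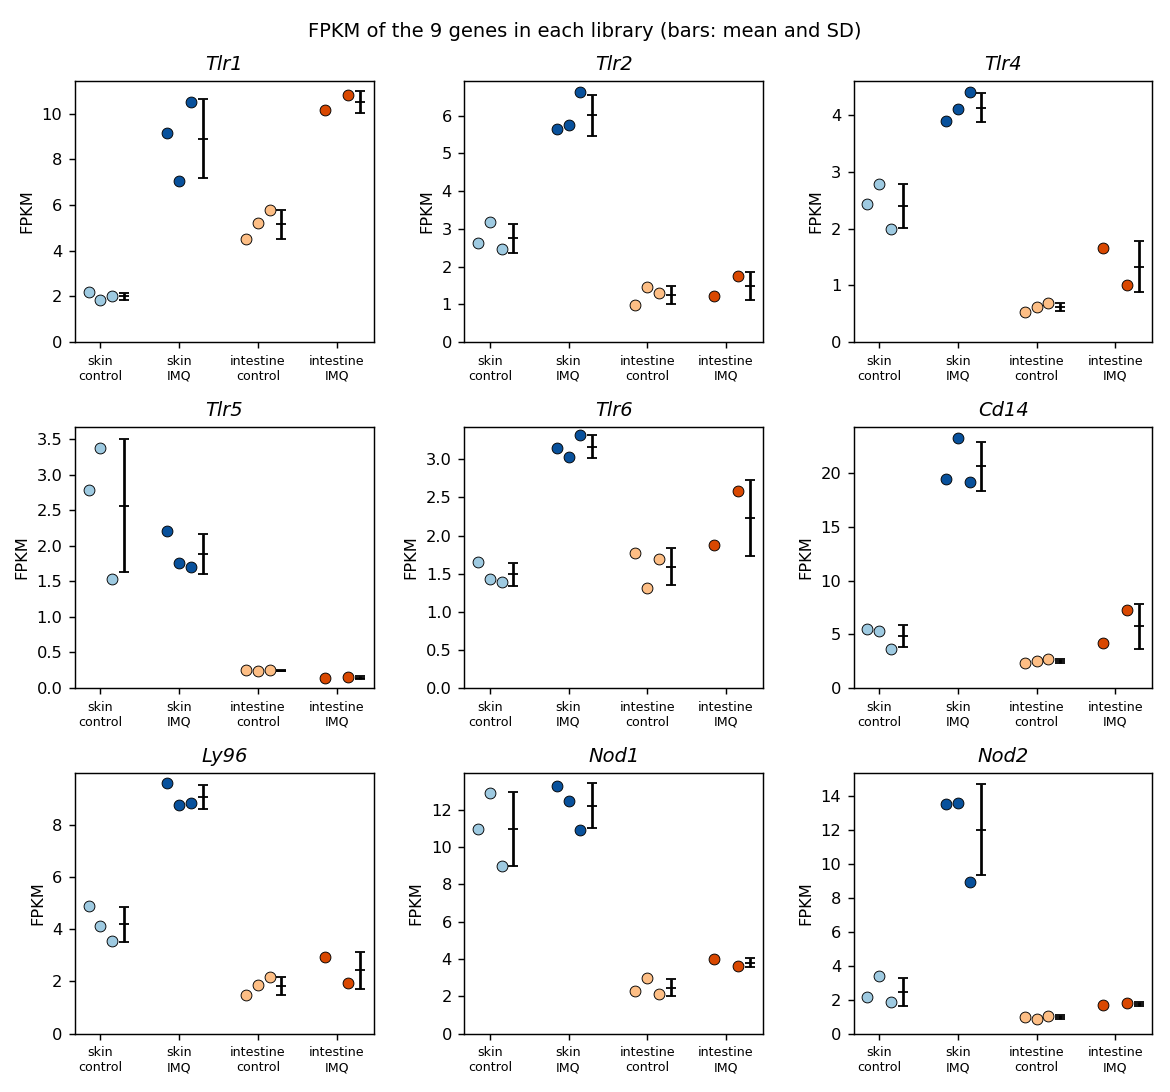
FPKM (vertical axes, each from 0) of the 9 genes in each library of control and IMQ-treated skin and small intestine, with the mean and SD beside the points. Tlr1 was 4.50 to 5.77 FPKM in control small intestine and 1.85 to 2.17 in control skin, whereas Tlr5 was at most 0.25 FPKM in small intestine.

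After IMQ, 7 of the 9 genes rose in the skin and none fell. The largest increases were those of Nod2 (log2 fold change 2.32), Tlr1 (2.19, or 4.57-fold) and Cd14 (2.14), and Tlr5 and Nod1 were not called. Of the 20512 genes tested in skin, 4.05% were called higher and 2.69% lower after IMQ, and 15.1% had every IMQ library above every control library, which held for the same 7 of the 9 genes. The median log2 fold change was 1.15 over the 9 genes and -0.01 over all genes tested. The count of 7 was the same without control library 2, and it was 5 without control library 3, 4 without IMQ library 6, 3 without IMQ library 4 and 2 without control library 1 or IMQ library 5. In the small intestine only Tlr1 rose, against 2.77% of 19965 genes called higher and 0.17% called lower. The 2 IMQ libraries lay above the 3 control libraries for 6 of the 9 genes, against 15.1% of all genes tested, and the median log2 fold change was 0.68 over the 9 genes and -0.02 over all genes. No gene of the 9 was called without control library 8 or IMQ library 11, and DESeq2 called 5. In bulk tissue, more cells of a type and more mRNA per cell cannot be told apart.

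**Figure D2:**
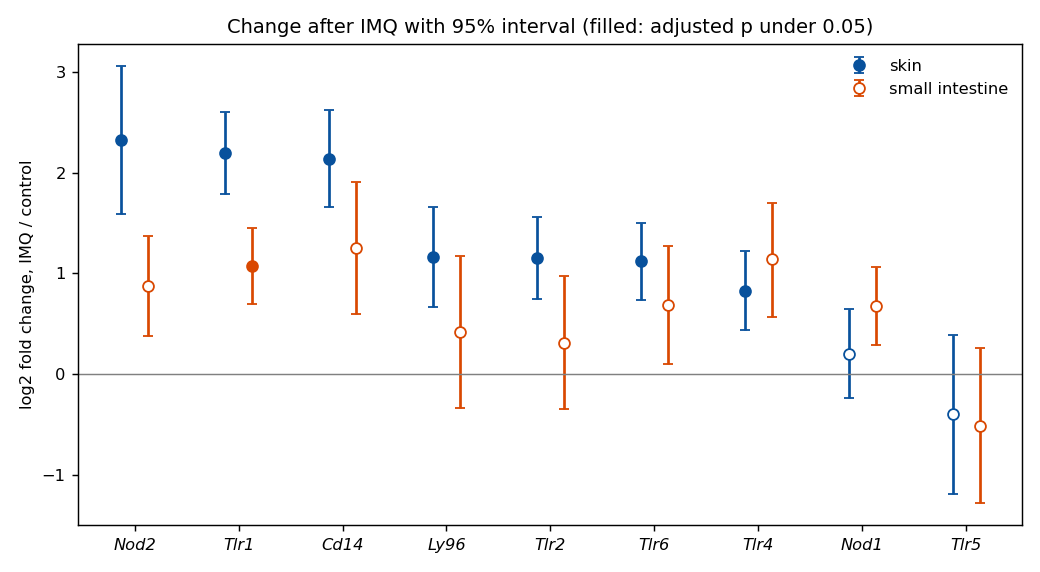
Log2 fold change of IMQ over control (vertical axis) with its 95% interval for the 9 genes (horizontal axis, ordered by the change in skin), blue for skin and orange for small intestine, with filled points for an adjusted p under 0.05 in edgeR's test. The points of skin lie between -0.40 and 2.32 with 7 filled, and those of small intestine between -0.51 and 1.25 with 1 filled.

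Among the receptors of lipopeptides, Tlr1, which encodes the partner of TLR2 for triacylated lipopeptides, had 327, 313 and 316 normalized counts in control skin and 1558, 1149 and 1657 in IMQ-treated skin. Normalized counts are read counts scaled by relative log expression, within each tissue, to a common library size. The lowest IMQ library was more than 3 times the highest control library, and the log2 fold change was 2.19 ± 0.17 (SE, edgeR adjusted p = 0.00238). It was called with any of the 6 skin libraries left out, with 2.18 (adjusted p = 0.00493) without control library 2. In small intestine, Tlr1 had 788, 851 and 1033 normalized counts in control mice and 1740 and 2006 after IMQ. The groups did not overlap, and the log2 fold change was 1.07 ± 0.16 (edgeR adjusted p = 0.0134). The call was lost without control library 8 (1.04, adjusted p = 0.0521), IMQ library 10 (1.18, adjusted p = 0.0659) or IMQ library 11 (0.97, adjusted p = 0.126).

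Tlr2, the subunit shared by both lipopeptide receptors, had 396, 521 and 364 normalized counts in control skin and 923, 906 and 1018 after IMQ. Every IMQ library was higher, with a log2 fold change of 1.15 ± 0.17 (edgeR adjusted p = 0.0148). In small intestine it had 165, 229 and 226 normalized counts in control mice and 203 and 310.5 after IMQ. The groups overlapped there, and the log2 fold change of 0.31 (95% interval -0.35 to 0.97, adjusted p = 0.765) was not called, with 0.59 without IMQ library 10, -0.03 without IMQ library 11 and 0.18 without control library 7. Tlr6, which encodes the partner for diacylated lipopeptides, had 286, 242 and 248 normalized counts in control skin and 585, 512 and 589 after IMQ, again without overlap (1.12 ± 0.16, edgeR adjusted p = 0.0127). In small intestine Tlr6 had 297, 229.9 and 309 against 360.4 and 537, with both IMQ libraries higher but far apart (0.68, 0.10 to 1.27, edgeR adjusted p = 0.298). Its log2 fold change there was 0.37 without IMQ library 11 and 0.95 without IMQ library 10. In skin, Tlr2 lost its call without control library 1 (adjusted p = 0.0759) or IMQ library 4 (0.0559), 5 (0.0693) or 6 (0.0507), with log2 fold changes of 1.10 to 1.19. Without control library 2, Tlr2 (1.32, adjusted p = 0.00586) and Tlr6 (1.08, adjusted p = 0.0143) were called. Tlr6 lost its call without control library 1 (adjusted p = 0.0535) or IMQ library 4 (0.0588) or 5 (0.06), with 1.09 to 1.19.

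The promoters of these receptors are shown because Tlr1, Tlr2, Tlr6 and Nod2 rose together in the skin whereas Nod1, a paralog of Nod2, was not called. They are windows of 250 bases before and 50 bases from the start site on, from RefSeq (GRCm38.p6). The windows of 6 of the 9 genes were used here, the 5 printed and that of Tlr5. Those of the other genes, all of which rose in the skin, were not searched. The first start site listed is printed for each gene shown. For Tlr6 that site lies inside the gene span given above, away from its end at 64970942, where this minus-strand gene begins. Tlr2 is at chr3:83841559-83841858 (minus strand), Tlr1 at chr5:64933509-64933808 (minus), Tlr6 at chr5:64959117-64959416 (minus), Nod2 at chr8:88647097-88647396 (plus) and Nod1 at chr6:54972563-54972862 (minus). Capitals mark the letters of motifs searched on both strands: the NF-kappaB consensus, GAGGAA (PU.1), TGANTCA (AP-1), GGGCGG (Sp1) and the interferon-stimulated response element, read as GAAA followed by a second GAAA after a gap of 2 bases.
Tlr2: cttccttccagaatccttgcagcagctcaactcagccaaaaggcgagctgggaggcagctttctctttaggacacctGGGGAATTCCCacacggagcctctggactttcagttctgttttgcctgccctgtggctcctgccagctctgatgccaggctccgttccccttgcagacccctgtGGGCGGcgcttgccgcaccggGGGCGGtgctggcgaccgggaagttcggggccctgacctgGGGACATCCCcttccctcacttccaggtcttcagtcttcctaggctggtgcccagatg
Tlr1: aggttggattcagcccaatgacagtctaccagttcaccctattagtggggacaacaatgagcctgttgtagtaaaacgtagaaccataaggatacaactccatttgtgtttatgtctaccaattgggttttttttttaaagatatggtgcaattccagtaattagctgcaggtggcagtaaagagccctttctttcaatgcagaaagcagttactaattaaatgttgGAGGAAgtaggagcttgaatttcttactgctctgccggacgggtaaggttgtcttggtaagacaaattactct
Tlr6: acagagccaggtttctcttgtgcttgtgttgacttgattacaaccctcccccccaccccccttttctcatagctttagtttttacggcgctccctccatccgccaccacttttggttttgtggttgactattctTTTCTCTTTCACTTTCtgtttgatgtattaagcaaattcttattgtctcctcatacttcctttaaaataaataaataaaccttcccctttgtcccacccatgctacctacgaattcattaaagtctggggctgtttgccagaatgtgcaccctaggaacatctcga
Nod2: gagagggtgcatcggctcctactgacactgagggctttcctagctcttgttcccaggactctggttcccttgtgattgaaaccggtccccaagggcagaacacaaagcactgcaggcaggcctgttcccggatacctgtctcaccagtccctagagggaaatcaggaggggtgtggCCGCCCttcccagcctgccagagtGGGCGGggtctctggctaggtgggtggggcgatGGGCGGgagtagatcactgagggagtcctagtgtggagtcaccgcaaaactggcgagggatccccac
Nod1: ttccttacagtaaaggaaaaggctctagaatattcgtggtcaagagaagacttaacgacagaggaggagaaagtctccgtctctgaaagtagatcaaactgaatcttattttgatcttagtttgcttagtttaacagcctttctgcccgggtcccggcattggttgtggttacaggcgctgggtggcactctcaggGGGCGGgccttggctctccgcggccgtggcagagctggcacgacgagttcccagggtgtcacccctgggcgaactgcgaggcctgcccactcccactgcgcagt
Only the window of Tlr2, among these 5, held the NF-kappaB consensus, which 8.46% of all 32851 promoter windows of this length hold. It was found at 2 places, beginning 173 and 8 bases before the start, with 3 overlapping matches at the first and matches on both strands at the second. Tlr1 held GAGGAA at 1 place, 23 bases before the start (28.3% of all windows), and Tlr6 held 2 overlapping matches to the interferon-stimulated response element (3.44% of all windows). GGGCGG was found at 3 places in Nod2, 2 in Tlr2 and 1 in Nod1 (35.7% of all windows), and TGANTCA, held by 7.81% of all windows, in none of the 5. The window of Tlr5, which was not called in skin, also held GGGCGG at 2 places and no other of these motifs. Tlr1, Tlr6 and Nod1 each had a further start site, not printed, whose window held no match to any of these motifs. The further window of Tlr6, at chr5:64959999-64960298, also lay inside the gene. The matches therefore belong to the printed windows, describe letters and are not evidence of binding.

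Among the genes of lipopolysaccharide sensing, Cd14, which encodes the co-receptor that hands lipopolysaccharide to TLR4, had 479, 496 and 316 normalized counts in control skin and 1845, 2129 and 1708 after IMQ. The lowest IMQ library was more than 3 times the highest control library, and the log2 fold change was 2.14 ± 0.20 (SE, edgeR adjusted p = 0.00406), called with any skin library left out and at 2.26 (adjusted p = 0.00555) without control library 2. In small intestine it had 227, 228 and 267 normalized counts in control mice and 402 and 744 after IMQ. Both IMQ libraries were higher but differed from each other more than the control libraries did, and the log2 fold change of 1.25 (95% interval 0.59 to 1.91, edgeR adjusted p = 0.0752) was not called. It was called without IMQ library 10 (1.63, adjusted p = 0.0336) and fell to 0.74 without IMQ library 11 (adjusted p = 0.462).

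Tlr4, the signaling receptor for lipopolysaccharide, had 1003, 1231 and 811 normalized counts in control skin and 1755, 1780 and 1861 after IMQ. The groups did not overlap (0.83 ± 0.16, edgeR adjusted p = 0.0339). In small intestine it had 249.5, 267 and 329.7 normalized counts in control mice and 747 and 493 after IMQ, a log2 fold change of 1.14 (0.57 to 1.70, adjusted p = 0.0606) that was not called. Ly96, whose product MD2 forms the lipid-binding pocket of the complex, had 155, 141 and 109.8 normalized counts in control skin and 331, 291 and 286 after IMQ, again without overlap (1.16 ± 0.21, edgeR adjusted p = 0.0258). In small intestine Ly96 had 53.1, 61.5 and 79.4 against 100.8 and 72.1, with overlap between the groups (0.42, -0.34 to 1.17, adjusted p = 0.709), and its log2 fold change was 0.16 without IMQ library 10 and 0.64 without IMQ library 11. IMQ library 10 of the small intestine was the higher of the pair for Tlr4 and Ly96, and IMQ library 11 for Cd14, Tlr2 and Tlr6. In skin, among the fits with a library left out, Tlr4 (0.99, adjusted p = 0.0103) and Ly96 (1.20, adjusted p = 0.0277) kept their call only without control library 2. Tlr4 also lost it with limma on log2(FPKM + 1) (0.60, adjusted p = 0.0661). With any other library left out, their adjusted p was 0.0522 to 0.128 for Tlr4 (log2 fold change 0.68 to 0.85) and 0.0559 to 0.11 for Ly96 (1.03 to 1.27).

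Tlr5, the receptor of flagellin, did not follow the other TLRs. It had 489, 635 and 262 normalized counts in control skin and 428, 317 and 306.5 after IMQ. The IMQ libraries lay inside the range of the controls (-0.40, 95% interval -1.19 to 0.39, edgeR adjusted p = 0.529), and the difference was -0.10 without control library 2 (adjusted p = 0.876) and -0.69 without control library 3 (adjusted p = 0.158). In small intestine it had 48.8, 64.5 and 73.9 normalized counts in control mice and 39.0 and 48.8 after IMQ, the latter just under the lowest control library (-0.51, -1.28 to 0.26, adjusted p = 0.636). These data cannot tell a small decrease from none.

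Of the NOD sensors, Nod2, which recognizes muramyl dipeptide, had 523, 879 and 445 normalized counts in control skin and 3575, 3447 and 2205 after IMQ. The lowest IMQ library was more than 2 times the highest control library, and the log2 fold change was 2.32 ± 0.31 (SE, edgeR adjusted p = 0.0107). The call was lost without control library 1 (2.21, adjusted p = 0.055) or IMQ library 5 (2.23, adjusted p = 0.0525), and without control library 2 the log2 fold change was 2.67 (adjusted p = 0.00545). In small intestine Nod2 had 271, 222 and 299 normalized counts in control mice and 443 and 525 after IMQ, which did not overlap and were not called (0.87, 95% interval 0.37 to 1.37, adjusted p = 0.101).

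Nod1, which recognizes peptidoglycan fragments with diaminopimelic acid, had 2486, 3139 and 2009 normalized counts in control skin and 3285, 2971 and 2535 after IMQ. The groups overlapped, and the log2 fold change of 0.20 (95% interval -0.24 to 0.64, edgeR adjusted p = 0.566) was not called. It was 0.38 without control library 2 (adjusted p = 0.178), 0.05 without control library 3 (adjusted p = 0.901) and 0.12 without IMQ library 4 (adjusted p = 0.824). In small intestine it had 579, 707 and 557 normalized counts in control mice and 990.4 and 974 after IMQ, higher in both IMQ libraries but not called (0.68, 0.29 to 1.06, adjusted p = 0.0995).

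Whether the change after IMQ differed between the tissues was called for 1 of the 9 genes, and which gene was called depended on the model. Tested as an interaction over all 11 libraries, small intestine minus skin, the log2 difference for Tlr1 was -1.11 ± 0.24 (SE, edgeR adjusted p = 0.0397), so that its increase was larger in skin. Of the 18108 genes tested, 0.856% were called with a more positive change in skin and 1.7% with a more positive change in small intestine. This call was lost in 8 of the 11 fits with a library left out, with an adjusted p up to 0.171 without IMQ library 10 of the small intestine, while the difference stayed between -1.26 and -0.99. It was also lost with the filterByExpr filter (adjusted p = 0.055), without a filter (adjusted p = 0.0701) and with limma on log2(FPKM + 1) (-0.80, adjusted p = 0.0961). Nod2 differed by -1.44 (95% interval -2.35 to -0.52, adjusted p = 0.106), which was not called, and without control skin library 2 it was -1.81 and called (adjusted p = 0.0116). Nod2 was also called with DESeq2 (-1.43, adjusted p = 0.0202) and, in place of Tlr1, with limma on log2(FPKM + 1) (-1.44, adjusted p = 0.0363). The differences of Cd14 (-0.88, -1.69 to -0.06, adjusted p = 0.26), Tlr2 (-0.83, -1.57 to -0.09, adjusted p = 0.237) and Ly96 (-0.74, -1.51 to 0.03, adjusted p = 0.314) were also toward skin and not called. They rested on the IMQ intestines: without library 10 and library 11, respectively, the difference was -0.49 and -1.41 for Cd14, -0.54 and -1.19 for Tlr2, and -0.99 and -0.54 for Ly96. Those of Tlr6 (-0.43, -1.08 to 0.23), Tlr5 (-0.10, -1.19 to 0.99), Tlr4 (0.32, -0.34 to 0.97) and Nod1 (0.48, -0.10 to 1.07) were not called, with intervals on both sides of 0. For none of the 6 genes called in skin and not in small intestine was the difference between the tissues called in this fit.

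Within each library, the balance between partner receptors was compared as a ratio of FPKM, for 6 ratios in 2 tissues. In skin, Nod2 per Nod1 was 0.196, 0.262 and 0.206 in control mice and 1.02, 1.08 and 0.815 after IMQ, so the transcript of Nod2 came near that of Nod1. Tlr1 per Tlr6 in skin was 1.31, 1.30 and 1.45 in control mice and 2.91, 2.33 and 3.16 after IMQ, and Cd14 per Tlr4 was 2.27, 1.92 and 1.85 against 5.00, 5.68 and 4.36. The groups did not overlap for any of these 3 ratios, and the exact two-sided permutation test gave p = 0.1 for each, the smallest that 3 against 3 libraries allow (0.3 after adjustment over the 12 comparisons). In skin, Tlr6 per Tlr2 was 0.548 ± 0.094 (SD, n = 3) in control mice and 0.528 ± 0.028 (SD, n = 3) after IMQ, which overlapped (exact permutation p = 0.8). In small intestine, Nod2 per Nod1 was 0.439, 0.295 and 0.502 in control mice and 0.419 and 0.502 after IMQ, with overlap. Tlr1 per Tlr2 was 0.831, 0.58 and 0.816 in control skin and 1.62, 1.23 and 1.58 after IMQ (exact permutation p = 0.1), and in small intestine 4.59, 3.6 and 4.42 in control mice and 8.27 and 6.22 after IMQ, without overlap in either tissue. Tlr1 per Tlr6 in small intestine was 2.55, 3.98 and 3.41 in control mice and 5.41 and 4.19 after IMQ, also without overlap. The gap between 3.98 and 4.19 is narrow, and the transcript length implied for Tlr6 varied 1.21-fold between libraries. Ratios with Tlr6 therefore do not follow the counts alone, and the stretches it shares with Tlr1 add to their uncertainty. Cd14 per Tlr4 (4.32, 4.04 and 3.85 against 2.56 and 7.16) and Tlr6 per Tlr2 (1.8, 0.905 and 1.3 against 1.53 and 1.48) overlapped in small intestine, as did Ly96 per Tlr4 in skin (2.01, 1.49 and 1.78 against 2.46, 2.14 and 2.01). Ly96 per Tlr4 in small intestine was 2.76, 3 and 3.13 in control mice and 1.77 and 1.91 after IMQ, without overlap. With 3 against 2 libraries, the exact test used here, which doubles the smaller one-sided p, cannot give a p under 0.2.

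**Figure D3:**
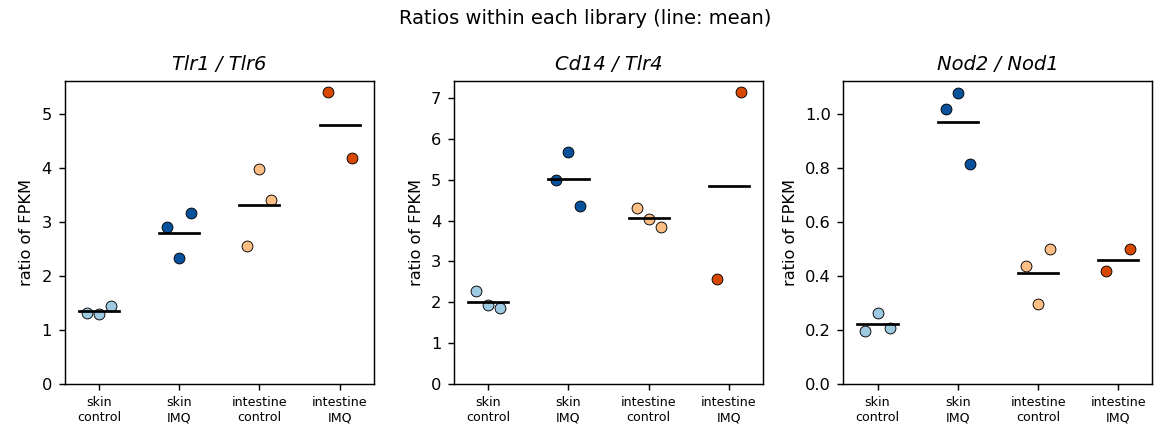
Ratio of FPKM within each library (vertical axes, from 0) for Tlr1 over Tlr6, Cd14 over Tlr4 and Nod2 over Nod1 in the 4 groups, with a line at the mean. In skin all 3 ratios were higher in every IMQ library than in every control library, and in small intestine Cd14 over Tlr4 and Nod2 over Nod1 overlapped.

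Across the 11 libraries, after the mean of each tissue was subtracted, the 7 genes called in skin varied together, with Pearson correlations of 0.677 to 0.957 over their 21 pairs. Nod1 correlated with these 7 at 0.469 to 0.769, and Tlr5 with the 8 other genes at -0.394 to 0.0301. The values share libraries, depth and the IMQ contrast, by which the 7 genes were picked in skin, and are given as a description. Among 13898 genes compared, the 2 most like each gene were Efhd2 (0.98) and Tlr13 (0.976) for Tlr1, Birc3 (0.969) and Nfkbiz (0.95) for Tlr2, and Coro1b (0.986) and Abr (0.975) for Tlr6. They were Calhm6 (0.98) and Commd8 (0.979) for Tlr4, Gpr65 (0.985) and Slfn2 (0.978) for Cd14, and Sh3bp2 (0.954) and Hif1a (0.953) for Ly96. For Nod2 they were Stard3 (0.976) and Gpr65 (0.969), for Nod1 Wdr81 (0.969) and Map3k3 (0.959), and for Tlr5 Cds1 (0.958) and Sh3yl1 (0.956).

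Other genes of these pathways were described by lists, and no listed gene was called lower in either tissue. Of all genes tested, 4.05% were called higher in skin and 2.77% in small intestine, against which the counts of each list are to be read. Of 18 adaptors and kinases of TLR signaling, 3 rose in skin (median log2 fold change 0.16 over the list), namely Ticam2 (1.17), Myd88 (0.94) and Irak4 (0.85), and 2 in small intestine (median 0.07), Ticam2 (2.38) and Myd88 (0.87). Myd88 encodes the main adaptor of these receptors, Ticam2 an adaptor of TLR4 and Irak4 a kinase that MyD88 recruits. Of the accessory proteins of surface TLRs, 3 of 11 rose in skin (median 0.20), Itgam (2.94), Itgb2 (1.86) and Ly86 (1.30), and 5 of 11 in small intestine (median 0.84), led by Itgb2 (3.43), Cd180 (2.37) and Ly86 (2.07). Itgam and Itgb2 encode the subunits of a myeloid integrin, and Cd180 and Ly86 a receptor pair related to TLR4 and MD2.

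Of the NOD pathway, 3 of 13 genes rose in skin (median 0.05), Slc15a3 (1.65), Birc3 (1.08) and Casp8 (0.55), and 2 of 12 in small intestine (median 0.19), Slc15a3 (2.70) and Card9 (1.82). Slc15a3 encodes a lysosomal peptide transporter and Card9 an adaptor of innate signaling. Ripk2, the kinase shared by NOD1 and NOD2, had log2 fold changes of -0.11 in skin (edgeR adjusted p = 0.815) and 0.30 in small intestine (adjusted p = 0.805), and is named although it was not called because both sensors need it. The genes listed here as negative regulators had 3 of 14 called in skin (median 0.33), Nfkbiz (1.92), Socs3 (1.52) and Irak3 (0.81), and 1 of 15 in small intestine (median 0.34), Irak3 (2.32). Whether Nfkbiz lowers or raises NF-kappaB responses was not tested, and its place in this list is not a result. None of the 4 peptidoglycan recognition proteins tested in skin (median 0.73) and of the 2 tested in small intestine (median -0.46) was called.

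The endosomal TLRs, most of which sense nucleic acids while Tlr11 and Tlr12 encode receptors of profilin, and their chaperone had 4 of 8 genes called in skin (median 1.14), led by Tlr13 (2.37), Tlr8 (1.77) and Unc93b1 (1.62), and 5 of 8 in small intestine (median 1.18), led by Tlr8 (4.28), Tlr9 (2.58) and Unc93b1 (1.46). In small intestine the median of this list was thus above the 0.68 of the surface and NOD sensors, and no test of that difference was made. The cytokine targets of NF-kappaB had 5 of 10 called in skin (median 2.16), led by the chemokines Cxcl1 (4.13), Ccl4 (3.49) and Ccl3 (2.91), and 3 of 10 in small intestine (median 1.60), Il1b (3.16), Ccl3 (3.13) and Cxcl1 (1.91). The chemokines Cxcl2 (mean normalized count 12.7 in control skin and 464 after IMQ) and Cxcl3 (3.05 and 97.98) were not tested in skin because a library had no count, and both are named here after their values were seen. Counts of called genes moved with the libraries: without control skin library 2, 9 of these cytokines, 6 negative regulators and 5 accessory proteins were called in skin. Without control skin library 1 or IMQ skin library 5, only 2 cytokines, 1 negative regulator, 1 gene of the NOD pathway and 2 endosomal TLR genes were called. In small intestine, 3 of the endosomal TLR genes were called without control library 9, IMQ library 10 or IMQ library 11, and 1 cytokine without control library 9. Without IMQ library 10 of the small intestine, 1 gene of the NOD pathway, 1 of the adaptors and kinases and 3 negative regulators were called, and without IMQ library 11 neither Ticam2 nor Myd88 was. In skin, the adaptors and kinases fell to 1 without IMQ library 4, 5 or 6, the NOD pathway to 1 and the endosomal TLR genes to 2 without IMQ library 4 or 6, and the negative regulators to 1 without IMQ library 4.

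**Figure D4:**
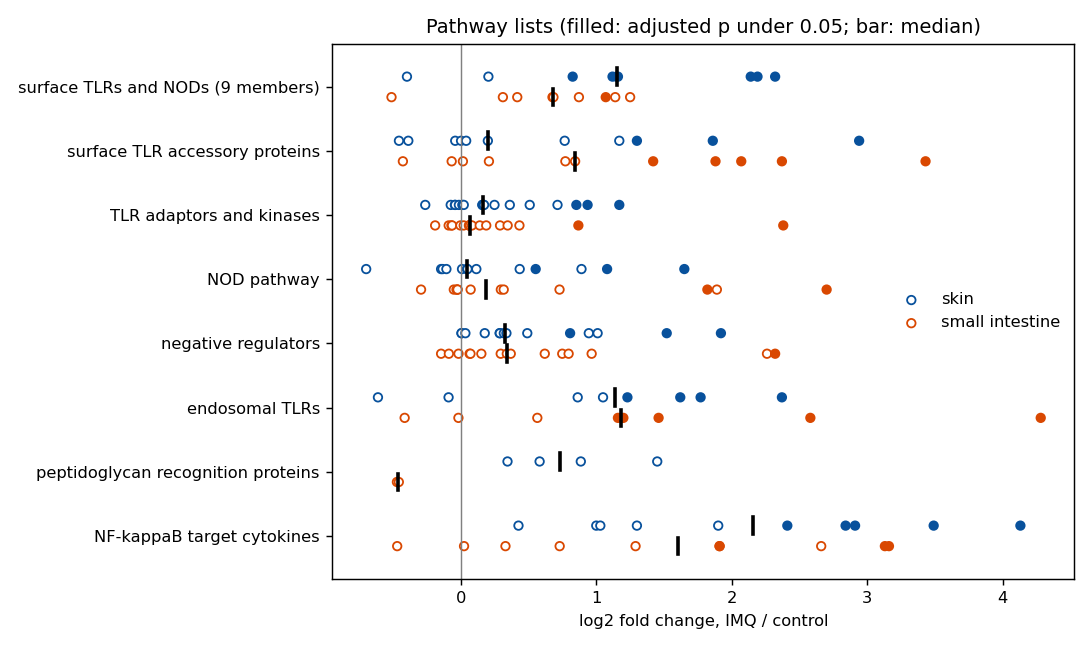
Log2 fold change of IMQ over control (horizontal axis) for each tested gene of the 9 sensors and of the 7 pathway lists (rows), blue for skin and orange for small intestine, with filled points for an adjusted p under 0.05 in edgeR's test and a bar at the median. The medians of the 9 sensors were 1.15 in skin and 0.68 in small intestine, and those of the adaptors and kinases 0.16 and 0.07.

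Summed markers of macrophages and monocytes were higher after IMQ in both tissues, and single markers of the other lists did not all move the same way. The 12 macrophage and monocyte markers summed to 302.5 to 446 FPKM in control skin and 777 to 983 after IMQ, with 6 of 12 called higher, and to 164 to 235 FPKM in control small intestine and 782 to 874 after IMQ, with 7 of 12 called higher. The neutrophil markers summed to 3.80 to 5.78 FPKM in control skin and 32.4 to 39.99 after IMQ, with 4 of the 5 tested called higher, and to 7.22 to 8.17 and 12.9 to 14.5 FPKM in small intestine, with 2 of 5 called. The 2 were Csf3r (mean normalized count 176 in control mice and 1620 after IMQ) and Mmp8 (4.02 and 14.7), while Cxcr2 (12.1 and 10.3) and Retnlg (222 and 211) were not called and Ly6g (2.45 and 0) and Ngp (1.45 and 0) were not tested. B cell markers summed to 1.02 to 2.11 FPKM in control skin and 4.70 to 5.29 after IMQ, with 1 of the 3 tested called. This was Cd79b (mean normalized count 29.5 and 314), while Fcer2a had 102 and 7.17 (log2 fold change -3.83, edgeR adjusted p = 0.0812) and Cd79a, not tested, 6.44 and 6.94. T cell markers summed to 12.9 to 26.1 FPKM in control skin and 21.2 to 63.9 after IMQ, with 0 of 6 called. In small intestine, B cell markers summed to 11.89 to 22.99 FPKM in control mice and 15.38 to 18.89 after IMQ. T cell markers there summed to 23.47 to 35.54 FPKM in control mice and 22.08 to 23.46 after IMQ. The median log2 fold changes there were -1.56 for B cell and -0.439 for T cell markers, with 0 of 7 and 0 of 6 called. Keratinocyte (4709 to 9392 and 7847 to 13060 FPKM) and fibroblast markers (1668 to 3284 and 2019 to 2263 FPKM) overlapped between control and IMQ-treated skin. In small intestine, markers of its proximal part summed to 2658 to 7806 FPKM in control mice and 12130 to 17020 after IMQ, without overlap and with 0 of 5 called. Only Apoa4 (mean normalized count 238000 in control mice and 843900 after IMQ) and Fabp1 (72700 and 180100) were higher after IMQ. Gata4 (log2 fold change -0.01), Lct (-0.04) and Cybrd1 (-0.44) were not. The part of these markers in the changes of the sensors was not tested.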

How the data were processed

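RNA of 11 libraries from skin and small intestine was sequenced. Per the labels and the study's methods, the authors used bcl2fastq 2.20.0, Trimmomatic, HISAT2 2.1.0 with the mm10 genome and StringTie 2.1.3b, and deposited a whole-number read count without normalization for each of 45777 genes. The same deposited table holds the FPKM of each gene, which the authors scaled by length and library size, and the TPM, which was left untested since it holds no depth. How counts were derived from StringTie is not given in the sources used here.

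Counts were analyzed in R 4.3.3 with edgeR 4.0.16 (quasi-likelihood test, relative log expression) on genes with at least 1 count in every library of the fit, with Benjamini-Hochberg adjustment over all of them. The standard error is the log2 fold change divided by the square root of F. Each tissue was fitted on its own, the interaction over all 11 libraries and the baseline over the 6 control libraries. Alternatives were TMM, DESeq2 1.42.0, filterByExpr, no filter, limma 3.58.1 on log2(FPKM + 1), a single fit of all libraries and each library left out. Ratios were tested by exact permutation in Python 3.11.15, and promoters were searched with Biopython 1.88. The source of promoters had no entry for Tlr4 or Ly96, and the promoter of Cd14 was left out of the search. The scripts were tested on simulated data.

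Libraries held 44995414 to 58526384 counts, with a biological coefficient of variation of 0.245 (skin) and 0.215 (small intestine). Replicate libraries differed by more than sampling noise in all 10 pairs (chi-square per degree of freedom 34 to 231). All 9 genes are named in every comparison. Of each pathway list, up to 3 called genes with the largest absolute log2 fold change are named per tissue. For each of the 9 genes, the 2 most correlated genes (log2 CPM with a prior count of 1, mean count of at least 50 in both tissues) are named. The 9 genes and the lists were chosen with earlier results of these data known.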

Additional observations from a re-analysis of the deposited data

Results flagged for a closer look

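The change of Tlr1 after IMQ was called different between the tissues: the interaction, small intestine minus skin, was -1.11 on the log2 scale (edgeR adjusted p = 0.0397), with an increase of 2.19 in skin and 1.07 in small intestine. All 3 IMQ libraries of skin and both of small intestine were above their controls. The call held in 3 of the 11 fits with a library left out and in 2 of 5 other models or filters, and was lost with filterByExpr, without a filter and with limma on FPKM.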

How the results depend on the processing

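No paired analysis was possible because the libraries are numbered 1 to 11 and no number is shared between groups. Of the 9 genes, 7 were called in skin, and 2 to 7 with a library left out. In small intestine 1 was called, 5 with DESeq2, 3 in a single fit of all 11 libraries and 0 to 1 with a library left out. In the interaction 1 was called, 2 with DESeq2, 0 with filterByExpr, 0 without a filter and 0 to 2 with a library left out. Between control tissues 6 were called, and 4 to 8 with a library left out. Over all genes, 1382 were called in skin (3030 with DESeq2, 894 with limma on FPKM, 258 to 2521 with a library left out), 588 in small intestine (1206 with DESeq2, 294 to 801 with a library left out) and 462 in the interaction (1281 with DESeq2, 301 without a filter, 144 to 1072 with a library left out). Directions turned only for genes that were not called: Tlr2 in small intestine to -0.0251 without IMQ library 11 (-0.0251 to 0.592 over the libraries left out), and in the interaction Tlr4 to -0.085 with limma on FPKM and Tlr5 to 0.154 with limma on FPKM, 0.2 without control skin library 3, 0.0643 without IMQ skin library 4, 0.0389 without control intestine library 9 and 0.0675 without IMQ intestine library 10 (-0.428 to 0.2 over the libraries left out). The cause was not tested. Where 1 of the 2 IMQ intestines was left out, the lone library was assumed to vary like the controls. The share of higher calls in skin was 60.1%, 50% with DESeq2, 49.5% in a single fit, 45.2% without control library 2, 75.1% without control library 1, 78.2% without IMQ library 4 and 84.9% without IMQ library 5. Between control tissues it was 49.5%, and 71.2% with limma on FPKM, where the median of all genes moved from 0.00252 to 0.23. In small intestine Tlr5 rested on 43 to 80 counts per library and Ly96 on 49 to 111.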
